A study of Mus musculus with 4 samples.

Results

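The 10 genes described here are 8 immediate early genes (Fos, Fosb, Jun, Junb, Egr1, Egr2, Ier2 and Atf3) and 2 inducible heat shock genes (Hspa1a and Hspa1b), chosen by symbol from the 40999 features listed in each library. Gonads of C57BL/6J wild-type mouse embryos were collected on the 4 days between E11.5 and E14.5, and XX and XY gonads were pooled in equal numbers from more than 1 litter. No transgene or treatment was used, and every library mixes both sexes. The mesonephros, the embryonic kidney that lies against the gonad, was included at E11.5 and removed from E12.5 on. Each day gave 1 library of total RNA depleted of ribosomal RNA, so there is no replicate at any time point and no test of a difference between days. The interval between dissection and freezing is not given in the sources used here.

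Immediate early genes are transcribed within minutes of a stimulus without the need for new protein. Growth factor signals reach them through ERK and p38 kinases, which act on SRF with its ETS partners and on CREB bound at their promoters, and their mRNAs are short-lived. The Fos and Jun proteins pair to form AP-1, the Egr proteins are zinc finger transcription factors, and Ier2 and Atf3 encode further nuclear regulators. Hspa1a and Hspa1b encode inducible HSP70 chaperones, which HSF1 switches on when unfolded protein accumulates. Both classes are also known to respond to tissue dissection and dissociation, and they serve as general reporters of signalling and of cell stress.

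The promoters of 5 members with a marked match are shown, so that some elements known to mediate such stimuli can be read in place. Each is the 250 bases before the RefSeq start site (GRCm38.p6, the same coordinates as mm10), printed 5′ to 3′ on the strand of the gene. Capitals mark matches on either strand to the core of a cAMP response element (TGACG, or CGTCA where it lies on the other strand), a 2-unit heat shock element (GAANNTTC) or a TATA box (TATAAA).
Fos, chr12:85473640-85473889, plus strand: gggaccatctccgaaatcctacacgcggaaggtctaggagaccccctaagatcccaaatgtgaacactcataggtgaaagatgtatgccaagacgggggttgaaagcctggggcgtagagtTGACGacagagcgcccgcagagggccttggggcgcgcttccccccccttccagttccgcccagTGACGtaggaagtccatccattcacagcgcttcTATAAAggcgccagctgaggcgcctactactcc
Jun, chr4:95052223-95052472, minus strand: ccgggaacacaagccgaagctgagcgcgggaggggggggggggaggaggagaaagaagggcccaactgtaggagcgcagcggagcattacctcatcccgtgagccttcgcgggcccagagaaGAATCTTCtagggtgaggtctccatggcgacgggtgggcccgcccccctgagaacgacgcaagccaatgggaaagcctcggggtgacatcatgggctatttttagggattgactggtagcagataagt
Junb, chr8:84978749-84978998, minus strand: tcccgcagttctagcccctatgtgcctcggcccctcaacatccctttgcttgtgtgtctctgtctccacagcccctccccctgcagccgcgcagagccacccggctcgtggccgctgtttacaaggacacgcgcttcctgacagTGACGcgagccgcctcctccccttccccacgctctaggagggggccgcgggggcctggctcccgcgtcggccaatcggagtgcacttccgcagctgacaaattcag
Atf3, chr1:191183334-191183583, minus strand: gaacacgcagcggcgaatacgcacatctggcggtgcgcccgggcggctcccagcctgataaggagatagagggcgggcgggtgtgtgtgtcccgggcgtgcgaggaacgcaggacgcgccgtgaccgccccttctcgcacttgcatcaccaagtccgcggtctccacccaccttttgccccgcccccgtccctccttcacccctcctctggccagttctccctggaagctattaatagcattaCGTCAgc
Hspa1a, chr17:34972157-34972406, minus strand: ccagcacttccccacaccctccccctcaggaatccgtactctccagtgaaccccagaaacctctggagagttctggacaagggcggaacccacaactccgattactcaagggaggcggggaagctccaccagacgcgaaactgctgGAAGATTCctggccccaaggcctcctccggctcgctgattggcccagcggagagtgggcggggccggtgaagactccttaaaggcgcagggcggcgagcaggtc

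Promoter windows were read for 8 of the 10 members, all but Egr1 and Ier2. The TGACG core was added to the search after the data were seen, so its shares are a description only. It was present in 4 of the 8 windows, those of Fos, Fosb, Junb and Atf3, against 17.8% of 32851 promoter windows of the same length. It lay at positions -129 and -66 from the start site in Fos, at -60 in Fosb, at -106 in Junb and on the other strand at -7 in Atf3. GAANNTTC was present in 3 of the 8, at -104 in both Hspa1a and Hspa1b and at -128 in Jun, against 6.69% of all windows. TATAAA was present at -33 in Fos and in 12.4% of all windows. The start sites used for Fosb and Egr2 lie 187 and 396 bases from the listed 5′ ends. The Fosb window thus overlaps the gene as listed, and the Egr2 window lies wholly inside Egr2 as listed. No marked element was present in the Egr2 window. The Hspa1a and Hspa1b windows were identical at 247 of 250 positions.

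Other motifs were searched on both strands without being marked. The GC box GGGCGG was present in 7 of the 8 windows and in 32.7% of all windows. CCAAT was present in 4, those of Jun, Junb, Hspa1a and Hspa1b, against 33.8%. The EGR site GCGNGGGCG was present in the Fosb window at -50, where its last bases overlap a GC box, and in 4.70% of all windows. The full cAMP response element TGACGTCA (1.55% of all windows), which contains the TGACG core, the AP-1 site TGANTCA (6.75%), TTCNNGAA (7.17%), the CArG box bound by SRF (1.47%) and the 3-unit heat shock element GAANNTTCNNGAA (0.466%), which contains both 2-unit forms, had no match in the 8 windows. Bases farther upstream and the promoters of Egr1 and Ier2 were not searched, so an absent match holds for these windows only. A match is a run of letters in this window and no measure of binding.

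The libraries held 25593453 to 31752562 deduplicated counts, and 3 counts corresponded to 0.0945 to 0.117 CPM (counts scaled to a common library size). The E14.5 library stood apart. TMM scaling, which aligns libraries on the bulk of their genes, multiplied its size by 0.688 and that of E13.5 by 1.45 in the comparison of both. Scaling by total counts in place of TMM shifted the median gene by 0.16 on the log2 scale in the first step, 0.03 in the second and -1.08 in the step to E14.5. Levels below are therefore TMM-scaled CPM over all 4 libraries, and changes are relative to the median gene. Levels of different members, and the most abundant genes of a list, are compared by deposited TPM, which corrects for length. Summed marker levels are CPM without that correction, so longer genes weigh more in them. Intervals are exact 95% intervals and cover counting error only.

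All 10 members were highest at E13.5 among the 4 libraries and lowest at E11.5. A highest level at E13.5 was found for 18.7% of the 18299 features tested throughout. Since the members and the gene lists were chosen with earlier results of these data known, such counts are descriptions. The ratio of the highest to the lowest level ranged from 1.37 for Jun to 7.78 for Fosb. The highest library was E13.5 for all 10 members also by total counts and by deposited TPM. The lowest library depended on the scaling, and the E11.5 and E12.5 levels of Hspa1a were within counting error of each other. By total counts E14.5 was lowest for 4 members (Jun, Ier2, Atf3 and Hspa1a), and by deposited TPM for 5 (these 4 and Hspa1b).

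**Figure D1:**
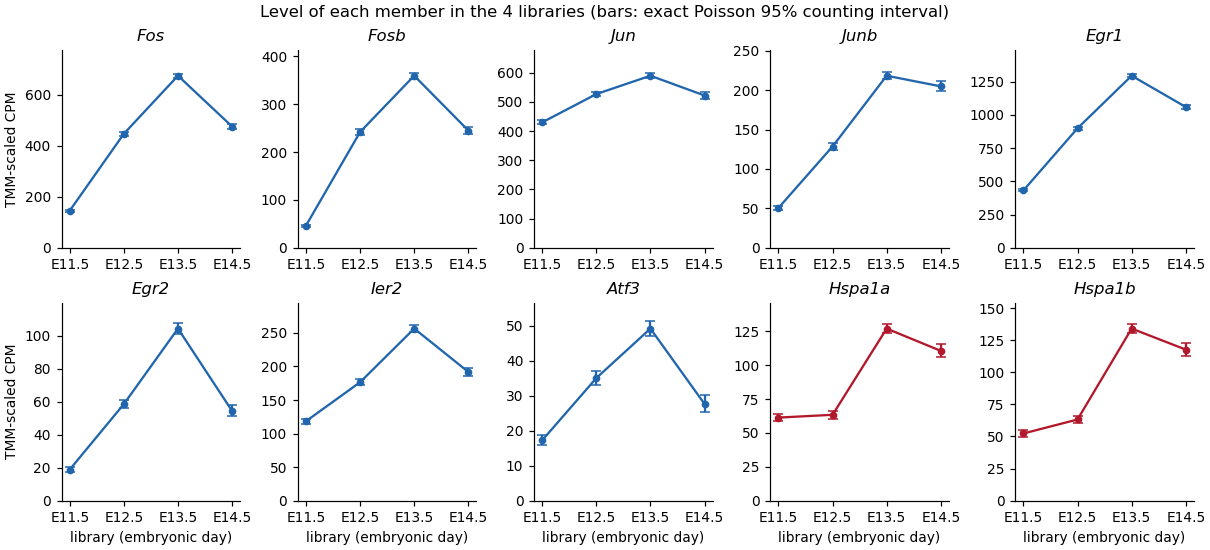
Level of each member in the 4 libraries, as TMM-scaled CPM on a linear axis from 0 against embryonic day, with exact Poisson 95% intervals for counting error. Every gene peaks at E13.5. On the log2 scale each immediate early gene (blue) rises most at E12.5, and Hspa1a and Hspa1b (red) rise most at E13.5. Jun and Hspa1b rise by similar amounts at E12.5, 0.29 and 0.27.

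The Fos genes encode the AP-1 subunits that bind DNA only with a Jun partner. Fos (chr12:85473901-85477269, plus strand) had 145 CPM at E11.5 and then 447, 674 and 475 CPM on the 3 days that followed. It was up-regulated 3.08-fold at E12.5, and E13.5 stood 0.59 higher again on the log2 scale (interval 0.56–0.62). At E14.5 it was 0.49 lower than at E13.5 (0.45–0.52 lower) and thus back near E12.5. Fosb (chr7:19302696-19310232, minus strand) encodes a related subunit whose truncated form accumulates on repeated stimulation. It had 46.2 CPM at E11.5 and then 242, 359.7 and 245 CPM on the 3 days that followed. Its rise of 5.24-fold at E12.5 was the largest of the members in any step. E14.5 and E12.5 could not be told apart for Fosb at this depth, with a log2 difference of 0.02 (interval -0.03–0.07).

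The Jun genes encode the partners, which also pair among themselves. Jun (chr4:95049036-95052222, minus strand) was the flattest member, with 429.9 CPM at E11.5 and then 527, 589.8 and 522 CPM on the 3 days that followed. None of its steps exceeded 0.29 on the log2 scale, the value at E12.5 (0.26–0.33). Junb (chr8:84976909-84978748, minus strand), often the weaker activator of the pair, had 50.5 CPM at E11.5 and then 128, 218 and 205 CPM on the 3 days that followed. It was up-regulated 2.55-fold at E12.5. Unlike Fos and Fosb it stayed close to its E13.5 level at E14.5, with a log2 difference of -0.07 (-0.13 to -0.02), and stood 0.67 above E12.5 (0.61–0.74).

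By deposited TPM, Fos made up most of the Fos family in every library, with 75.6% of the family total at E11.5 and 71.4%, 72.2% and 73.3% on the later days. The share of Fosb was 12.7% at E11.5 and 20.4%, 20.3% and 20.0% at the later days. Fosl2, a family member that responds more slowly, went from 11.4% at E11.5 to 6.58% at E14.5, and Fosl1 held at most 0.298%. In the Jun family the share of Jun went from 61.1% at E11.5 through 51.8% and 47.6% to 45.6% at E14.5. Junb held 12.4%, 21.9%, 30.5% and 31.0% on the same days. Jund, the constitutive member, held 26.5%, 26.3%, 21.9% and 23.4%. Of these shares, those of Jun and Junb changed most. The share of Jun fell although its TMM-scaled level was lowest at E11.5. Shares were taken within each family and do not rank changes across AP-1.

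**Figure D2:**
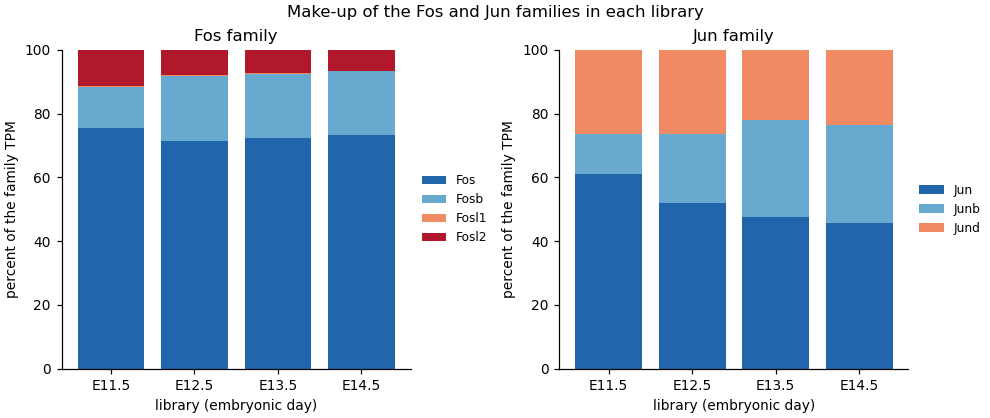
Percent of the summed TPM of the Fos family (left) and the Jun family (right) contributed by each gene in each library, as stacked bars from 0 to 100. Fos stays between 71.4% and 75.6% of its family, whereas Junb widens from 12.4% to 31.0% of its own.

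The Egr genes encode zinc finger factors that act downstream of ERK. Egr1, on chromosome 18, had 431 CPM at E11.5 and then 898, 1294 and 1058 CPM on the 3 days that followed, and it had the highest TPM of the 10 members in every library. It was up-regulated 2.08-fold at E12.5, and E14.5 stayed 0.24 above E12.5 on the log2 scale (0.21–0.26). Egr2 (chr10:67535103-67542188, plus strand), better known for its role in Schwann cells and hindbrain, had 7.50 TPM at E11.5 against 216.5 for Egr1. Its level was 18.8 CPM at E11.5 and then 58.5, 104 and 54.3 CPM on the 3 days that followed. It rose 3.11-fold at E12.5 and had the largest drop of the members at E14.5, of 0.92 on the log2 scale (0.82–1.02), which left it between E11.5 and E13.5. Its exons overlap those of a gene on the opposite strand, LOC102634748, over short stretches, and that gene had at most 2 counts in a library.

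Ier2 (chr8:84661331-84662852, minus strand) encodes a short-lived nuclear protein. It had 118 CPM at E11.5 and then 177, 257 and 192 CPM on the 3 days that followed, and its steps of 0.58, 0.54 and -0.40 on the log2 scale all stayed under 2-fold. Atf3 (chr1:191170296-191183333, minus strand) encodes a stress-induced repressor of the ATF/CREB family and had the lowest TPM of the members at E13.5 and E14.5. It had 17.3 CPM at E11.5 and then 35.0, 49.2 and 27.6 CPM on the 3 days that followed. It was up-regulated 2.03-fold at E12.5, with a log2 interval of 0.88–1.17 that includes values under 2-fold. Its level at E14.5 was 0.34 under that of E12.5 on the log2 scale (0.19–0.50 under), the widest shortfall among the members.

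On the log2 scale the heat shock pair had its larger rise at E13.5, and each immediate early member at E12.5. For Ier2 both rises were close, at 0.58 and 0.54. Hspa1a (chr17:34969359-34972156, minus strand) had 61.3 CPM at E11.5 and then 63.4, 127 and 111 CPM on the 3 days that followed. Hspa1b (chr17:34956429-34959238, minus strand) had 52.3, 63.2, 134 and 118 CPM on the same days. Both genes were low on the first 2 days and high on the last 2. At E12.5 the log2 fold change was 0.05 (-0.04–0.14) for Hspa1a and 0.27 (0.18–0.37) for Hspa1b, and under scaling by housekeeping genes the value of Hspa1a turned to -0.03. At E13.5 Hspa1b was up-regulated 2.12-fold, and Hspa1a lay just past the 2-fold threshold, with a log2 fold change of 1.001 (0.93–1.08).

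The transcripts of this pair share long identical stretches. Of the 50-base words in the longest annotated transcript, 62.3% of those of Hspa1b also occur in Hspa1a and 58.8% of those of Hspa1a in Hspa1b, while none of the other 8 members shares a word with another gene. How reads with several positions were counted is not given in the sources used here, so the split between both copies is uncertain. Counted together as 1 gene they changed by 0.16, 1.04 and -0.18 on the log2 scale in the 3 steps. Together they held 11.8%, 12.0%, 24.6% and 22.8% of the TPM of Hspa8, the constitutive HSP70, over the 4 days.

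From E11.5 to E12.5, a step within the window of sex determination, 6 of the 10 members rose at least 2-fold and none fell. The 6 were Fos, Fosb, Junb, Egr1, Egr2 and Atf3. Of all 19215 features tested, 8.64% rose and 9.11% fell by as much. The median log2 fold change was 1.20 over the 8 immediate early members and 0.16 over the heat shock pair, against -0.0041 over all features. Since abundant genes vary less from counting error, the members were also set against the 7918 features with at least 500 counts in both libraries, a limit chosen after the data were seen. Of these, 167 rose at least 2-fold (2.11%), and the 6 members are among them, with Fosb in 10th place.

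The E11.5 tissue differs from the later ones by the mesonephros, so the embryonic day and the tissue taken cannot be told apart in this step. All 8 mesonephric markers were listed with counts. Their summed level was 195 CPM at E11.5 and then 57.2, 53.2 and 224 CPM on the 3 days that followed, and 6 of the 8 fell at least 2-fold at E12.5. At E14.5 Wnt7b alone held 202 CPM of that sum, whereas Pax2, a defining nephric factor, had 44.7 CPM at E11.5 and 1.91, 1.85 and 1.91 thereafter. In bulk tissue, fewer cells of a type and less RNA per cell cannot be told apart.

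Markers of other cell types also moved. The gonadal somatic markers summed to 720.2 CPM at E11.5 and 1489 at E12.5, with 6 of 9 rising at least 2-fold, and the germ cell markers to 65.8 and 356 CPM, with 5 of 7 rising. The 9 macrophage markers tested, of 10 on the list (Adgre1 is not listed under that symbol), all fell at least 2-fold, and their sum went from 74.6 to 27.9 CPM. None of the 10 endothelial markers passed 2-fold, with sums of 495 and 469 CPM. Of the 8 erythroid markers listed, all but Epb42 and Ahsp of 10, 2 rose and 2 fell at least 2-fold, and their sum went from 1045 to 1504 CPM. No listed marker was at 0 in any library. The part of these cell types in the rise of the members was not tested.

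From E12.5 to E13.5, 2 of the 10 members rose at least 2-fold, both of them the heat shock genes, against 3.28% of the 19152 features tested that rose and 1.98% that fell. The 8 immediate early members were higher as well, by 0.16 (Jun) to 0.83 (Egr2) on the log2 scale, with a median of 0.55. None of these 8 passed 2-fold. The step was a quiet one for abundant genes. Among the 8305 features with at least 500 counts in both libraries, 26 rose 2-fold (0.313%), with Hspa1b in 19th and Hspa1a in 26th place. All members but Jun lay above the 95th percentile of these features, 0.27 on the log2 scale.

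None of the gonadal somatic, germ cell or endothelial markers passed 2-fold in the same step, and 1 macrophage marker rose. The summed levels at E12.5 and E13.5 were 1489 and 1384 CPM for the gonadal somatic, 356 and 439 for the germ cell, 27.9 and 28.5 for the macrophage and 469 and 358 for the endothelial markers. The erythroid markers summed to 1504 CPM at E12.5 and 1869.7 at E13.5, with 3 rising and 2 falling at least 2-fold. Their part in the levels of the members was not tested.

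From E13.5 to E14.5 all 10 members were lower, and none passed 2-fold in either direction, against 6.44% of the 18992 features tested that rose and 2.51% that fell. The differences ran from -0.07 (Junb) to -0.92 (Egr2) on the log2 scale, with a median of -0.44 over the immediate early members and -0.18 over the heat shock pair. Among the 6279 features with at least 500 counts in both libraries, Egr2 had the 4th lowest and Atf3 the 8th lowest value. In all, 5 members (Fos, Fosb, Egr2, Ier2 and Atf3) lay under the 5th percentile of -0.29. With total counts or deposited TPM all 10 would have fallen at least 2-fold, since the whole E14.5 library is then shifted. At E14.5 the markers summed to 1351 CPM for gonadal somatic cells, 358 for germ cells, 328 for endothelium, 46.5 for macrophages and 1953 for erythroid cells. In this step 3 macrophage, 2 mesonephric and 1 germ cell marker rose at least 2-fold, 2 erythroid markers fell, and no gonadal somatic or endothelial marker passed 2-fold. Their part in the levels of the members was not tested.

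**Figure D3:**
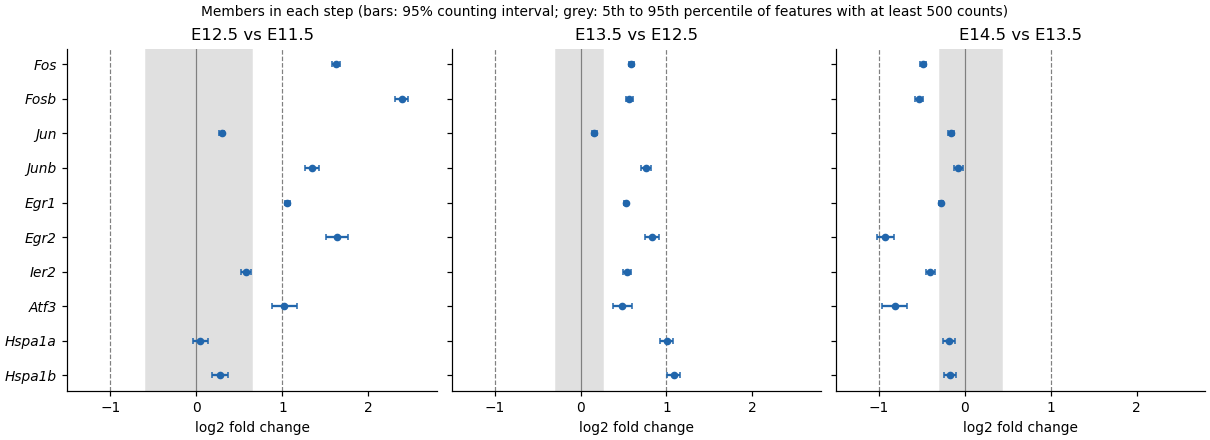
Log2 fold change of each member in the 3 consecutive steps, with exact 95% counting intervals, dashed lines at 2-fold and a grey band from the 5th to the 95th percentile of features with at least 500 counts in both libraries. The members lie to the right of the band or within it at E12.5, all but Jun to its right at E13.5, and to its left or within it at E14.5.

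By the values without their intervals, the sequence higher, higher, lower over the 3 steps was shared by all 10 members. It was shared by 2449 of the 18299 features tested throughout (13.4%). The first step of Hspa1a was not resolved, at 0.05 on the log2 scale with an interval of both signs (-0.04–0.14). Among 40 other immediate early genes the sequence was followed by 27 (67.5%), and 30 of the 40 were highest at E13.5. Of these 40, 11 rose at least 2-fold at E12.5 and none fell, 1 rose at E13.5, and 2 fell at E14.5. The medians on the log2 scale were 0.72, 0.21 and -0.39. Nr4a1, an orphan nuclear receptor induced with Fos, had 73.9 CPM at E11.5 and then 289.9, 415 and 281 CPM on the 3 days that followed. The gene that rose at E13.5 was Socs3, a feedback inhibitor of cytokine signalling, at 19.7, 47.3, 101 and 89.2 CPM, and those that fell at E14.5 were Egr3 and Arc, with log2 fold changes of -1.13 and -1.19.

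The 11 genes that rose at E12.5 were Nr4a3 with 2.26 and Nr4a1 with 1.97, both orphan nuclear receptors, Klf4 with 1.83, Ctgf with 1.80, Egr3 with 1.5, Ier3 with 1.48, the antiproliferative gene Btg2 with 1.40, Socs3 with 1.26, Fosl2 with 1.20, Egr4 with 1.14 and Mafk with 1.04, each a log2 fold change. Ctgf, a matricellular protein gene and target of YAP and SRF, had 39.2 CPM at E11.5 and then 136, 77.3 and 55.8 CPM on the 3 days that followed. Cyr61, a gene of the same family and with Rhob the most abundant of the list by TPM, was also highest at E12.5, with 385, 685, 589 and 389 CPM. Rhob, which encodes a small GTPase, was highest at E13.5, with 133, 225, 259.8 and 221 CPM.

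The same sequence (higher, higher, lower), whose first step was not resolved for Hspa1a, was followed by 5 of 24 other heat shock and chaperone genes (20.8%). Of these 24, 1 rose and 1 fell at least 2-fold at E12.5, none passed 2-fold at E13.5, and 1 rose at E14.5, with medians of 0.32, 0.04 and -0.04. Of the 24, 7 were highest at E13.5. The most abundant, Hspa8 and Hsp90ab1, changed by 0.00 and -0.10 on the log2 scale at E13.5. In that step 13 of the 24 were higher and 11 lower, and the largest rise was 0.84, for Dnajb1. Hspb1, a small heat shock protein, rose by 1.52 at E12.5 and stood at 3.91, 11.3, 20.0 and 21.5 CPM over the 4 days. Dnaja4, a co-chaperone, was the gene that fell at E12.5 and rose at E14.5, with 20.4, 8.74, 12.4 and 124 CPM.

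The kinases and factors that act on the members stayed under 2-fold at the RNA level. None of 17 upstream regulators passed 2-fold in any step, with medians of 0.09, -0.03 and -0.07. They include Hsf1, with 31.2, 32, 27.9 and 26.9 CPM, and Srf, with 86.0, 108, 117 and 82.0 CPM. Log2 fold changes of single regulators ran from -0.41 to 0.46, from -0.24 to 0.48 and from -0.49 to 0.31 in the 3 steps. The value of -0.49 was that of Srf, which was higher, higher and then lower over the 3 steps. The feedback genes of ERK signalling and the ETS factors it induces, 11 in all, followed an earlier course. Of these, 3 rose at least 2-fold at E12.5 (Dusp4, Spry4 and Etv5, by 1.16, 1.24 and 1.11), 1 fell at E13.5 (Etv4, at -1.06), and 1 fell at E14.5 (Dusp5, at -1.28). The medians were 0.48, -0.27 and -0.40. Of the 11, 9 were highest at E12.5, as were 3737 of the 18299 features tested throughout. The feedback genes Dusp6 and Spred1, the most abundant of the list, were both highest at E12.5.

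Other stress programmes were flatter than the members. Of 17 genes of the integrated stress response and the endoplasmic reticulum, a programme in which Atf3 is itself a target, 16 were tested at E12.5, and 1 rose at least 2-fold. This was Trib3, a pseudokinase gene, by 1.82 from 32 to 104 counts. None passed 2-fold at E13.5 or E14.5, and the medians were 0.04, -0.13 and 0.01. The chaperone genes Hspa5 and Hsp90b1 were the most abundant of that list, and at E13.5 they changed by -0.31 and -0.27. Of 16 hypoxia response genes none passed 2-fold at E12.5 or E13.5, and Adm, the vasodilator adrenomedullin, fell by 1.38 at E14.5. The abundant Vegfa and Kdm3a changed by 0.02 and 0.03 at E13.5. None of 15 housekeeping genes passed 2-fold, with medians of 0.08, -0.04 and -0.01, and their most abundant, Actb and Rpl13a, changed by -0.19 and 0.00 at E13.5.

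**Figure D4:**
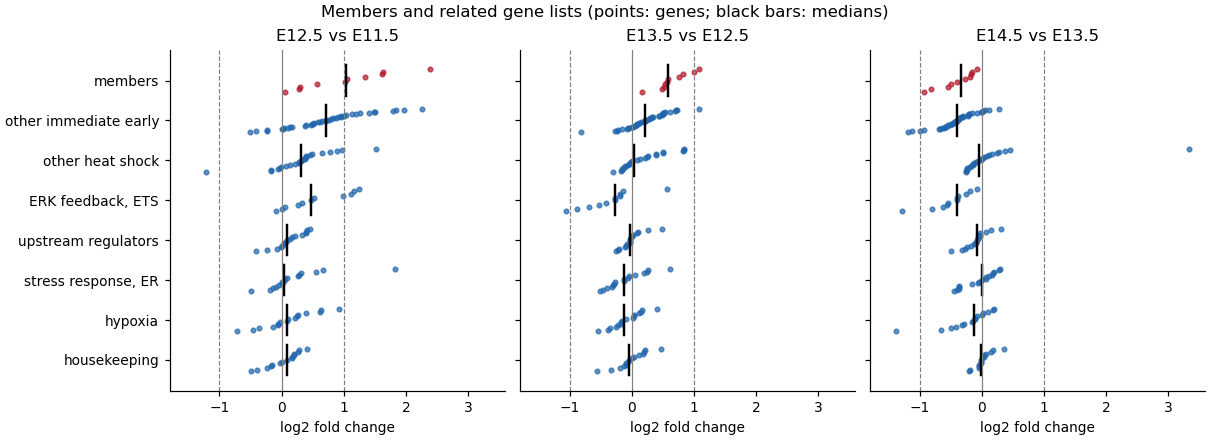
Log2 fold change of the members (red) and of 7 gene lists (blue) in the 3 consecutive steps, 1 point per gene, with black bars at the medians and dashed lines at 2-fold. The other immediate early genes are displaced in the same direction as the members in each step, while the medians of the upstream regulators, stress, hypoxia and housekeeping lists stay between -0.13 and 0.09.

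The genes outside the members with the closest courses were sought among 11630 features with at least 100 counts in every library, by the root mean square difference between the 4 log2 levels after each profile was centred on its mean. With 4 libraries, 1 for each day, such a likeness is a description. The 5 closest to the mean of the immediate early members were Ryr2, a calcium release channel, at 0.0871, Srgap3 at 0.0938, Thsd7b at 0.0978, Srsf12 at 0.102 and the elongation factor gene Tcea3 at 0.109. The members themselves lay between 0.0939 (Egr1) and 0.504 (Jun) from their own mean. This distance grows with a difference in the size of the changes as well as in shape, so it does not rank the members by shape.

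The heat shock pair had its closest match in both metallothioneins, small metal-binding proteins. Mt1 lay at 0.0710 and Mt2 at 0.0924. Hspa1a and Hspa1b each lay at 0.0639, an equal distance by construction, since the profile is the mean of these 2 genes alone. Mt2 had 148 to 367 counts in a library, so counting error enters its distance. Mt1 had 7.15 CPM at E11.5 and then 8.07, 17.5 and 16.3 CPM on the 3 days that followed. Enpp2 at 0.104 and Dnajb1 at 0.118 were also close. Dnajb1, the co-chaperone that works with inducible HSP70, stood at 70.2, 96.6, 173 and 144 CPM and is also on the heat shock list.

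**Figure D5:**
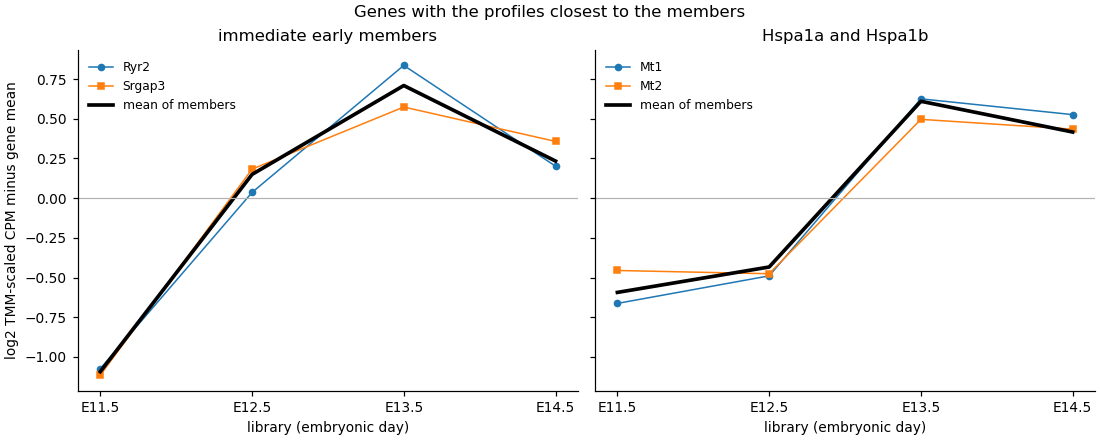
Log2 level in each library minus the mean of the gene over the 4 libraries, for the mean of the immediate early members (left, black) and of Hspa1a and Hspa1b (right, black), each with its 2 closest genes. The left profiles climb at E12.5 and E13.5, and the right profiles climb chiefly at E13.5.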

How the data were processed

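Total RNA of 4 pooled gonad samples, 1 per embryonic day, was depleted of rRNA with probes and RNase H, and stranded libraries with UMIs were sequenced. The authors trimmed the reads with cutadapt, aligned them to mm10 with STAR, removed duplicates with UMI-tools and counted genes with featureCounts. The values used are these deposited deduplicated counts and the TPM that the authors derived from them. The deposited RPKM was checked against the counts and not used otherwise. Tool versions, annotation and settings for strand and multiple alignments are not given in the sources used here.

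Libraries were grouped by their labels. Features kept by filterByExpr were scaled for each pair by TMM in edgeR 4.0.16 (R 4.3.3), and a feature was called at an absolute log2 fold change of at least 1 with a prior count of 0.125. With 1 library per day these calls rest on the fold change alone, and no p-value is reported. Intervals are exact Clopper-Pearson 95% intervals, for levels exact Poisson. A floor of 3 counts was used for depth. Steps after scaling used matplotlib 3.10.9, scipy 1.17.1, pandas 2.3.3 and numpy 2.4.6 under Python 3.11.15, and the computation was tested on simulated data. Shared words came from GENCODE M21 transcripts.

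Members and gene lists were chosen with earlier results of these data known. From each list, genes past 2-fold in a step whose higher library held 100 counts or more and the 2 with the highest mean TPM are named. Some single genes are not reported here. Hsf1 and Srf lie outside this rule, and the TGACG motif was added after the data were seen. Alternatives were DESeq2 1.42.0 size factors, other scalings, filters, thresholds and edgeR's exact test at preset variability.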

Additional observations from a re-analysis of the deposited data

How the results depend on the processing

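In the 3 steps 3412, 1009 and 1700 features passed 2-fold, and 6, 2 and 0 members. Most scalings left the member counts as they were. With DESeq2 size factors 1 member passed at E13.5, since Hspa1a then lay at 0.9995 on the log2 scale. Housekeeping scaling left 4 members at E12.5, without Egr1 at 0.98 and Atf3 at 0.94. At E14.5 total counts called 11921 features and all 10 members, and deposited TPM called 17056 and 10. The share of rises among the calls was 71.9% at E14.5, 2.71% by total counts and 0.915% by TPM, and by TPM it was 65.1% and 74.9% in the first 2 steps against 48.7% and 62.3%.

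Without a filter 10244, 7495 and 8740 features passed in the 3 steps, and with at least 10 counts in both libraries 2253 and 514 in the first 2 steps. With edgeR's exact test at a biological coefficient of variation of 0.1, 360 features were called at E13.5 and 925 at E14.5. At 0.4 the test called 286, 1 and 31 features, with 0 members in the first step and 0 in the second. When the whole interval had to pass 2-fold, 1727, 166 and 588 features were called and 1 member at E13.5 (Hspa1b). A 4-fold limit left 1247, 151 and 438 features, with 1 member at E12.5 (Fosb) and 0 at E13.5. Of 216 values for single members, 148 stayed within their interval and 68 moved beyond it. Of 147 list medians 35 moved by more than the typical half-width of their genes' intervals, and no called value changed sign. No paired analysis was possible because each time point has 1 library and the labels give no replicate numbers. Depth was ample for the members, with at least 520 counts in every library, and the missing replicates limit every comparison.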
